A study of Mus musculus with 23 samples.

Results

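Tumors of the mesenteric lymph node (MLN) from IL6Myc transgenic mice were compared with splenic B cells activated with lipopolysaccharide (LPS), a bacterial mitogen. The comparison used 12 of the 23 libraries of the series, chosen by their labels: 7 MLN tumors, 1 each from mice 1609, 1610, 1611, 1613, 1614, 1615 and 1616, and 5 libraries of activated B cells. The tumors carry the genotype IL6Myc, the labelled cell type malignant plasma cell and no treatment, and the series' title describes the strain as an immunocompetent model of aggressive multiple myeloma. The activated cells were wild type, from Balb/c mice, and were cultured with 1 µg/ml LPS for 16 hours after isolation. All tissue samples, tumors included, had gone through negative selection for B cells on magnetic beads, which leaves in the sample any cell that the beads do not capture. Neither the promoters that drive the transgenes nor the ages of the mice are stated in the labels used here. Activation, culture, genotype, tissue (node or spleen) and in part sex differ between the groups together and cannot be told apart. Whether the 5 activated libraries stand for separate animals is not stated, so p-values measure the spread between these libraries, which on the activated side may be technical. Gene names are the human symbols under which the deposited table lists the mouse genes.

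Plasma cells are B lineage cells that have matured to secrete antibody. Their program is run by the transcription factors IRF4, PRDM1 and XBP1, which shut down B cell genes and enlarge the endoplasmic reticulum, where antibody is folded and exported. LPS sets off NF-kB signaling through toll-like receptors in resting B cells, which then grow, raise glucose use and lipid synthesis, enter the cell cycle and begin to differentiate. The comparison therefore sets a tumor labelled as a plasma cell against a normal B cell in rapid growth.

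Over 11068 genes, 5926 passed an adjusted p of 0.05 in edgeR's quasi-likelihood test with Benjamini-Hochberg adjustment, or 53.5%. Of all genes tested 28.5% were higher in the tumors and 25.0% lower, so a list with about those shares of calls does not stand apart. In 18.4% of the genes every tumor lay above every activated library, and in 18.8% every tumor lay below. Levels below are CPM, which set each library to the same total, scaled by TMM factors, and log2 changes are tumors over activated cells with an approximate standard error (SE). The higher genes made up 53.3% of those called, but 32.9% with quantile normalization, which moved the median log2 change of all genes from 0.02 to -0.13.

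Totals of the estimated counts lay between 14712455 and 21897248 in the tumors and between 20194049 and 25045816 in the activated cells. The tumors had 13366 to 13974 profiles above 0 and the activated cells 11999 to 12238. Correlations of log2 levels between libraries were 0.8215 to 0.9628 among tumors, 0.9945 to 0.9964 among activated libraries and 0.7706 to 0.8884 across the groups. Summed Y-linked genes lay at 0.599 to 1.04 CPM in the activated libraries, at 3.39 and 7.37 CPM in the tumors of mice 1613 and 1614 and at 204 to 399 CPM in the other 5 tumors, so sex differs in part with the group. With those 2 tumors only, 6928 genes were called, 3689 higher and 3239 lower. The quiescent B cells of the series, 4 libraries, are given below for reference only. Their Y-linked genes lay at 474 to 487 CPM, so by this measure they differ in sex from the activated cells.

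MYC, a transcription factor of cell growth and one of the genes in the model's name, was higher in every tumor than in any activated library. Its lowest, median and highest tumor levels were 407, 815 and 1710 CPM. The activated libraries gave 214, 225, 214, 222 and 208 CPM, and the quiescent B cells of the series, which were not in the fit, averaged 68.7 CPM. The log2 change was 2.12 ± 0.36 (SE, edgeR adjusted p = 0.000407). The counts do not separate a transgene from the gene of the mouse. IL6, the plasma cell growth factor in the model's name, lay the other way. It was between 0.0741 and 1.65 CPM in the tumors with a median of 0.519, and 72.2, 63.9, 57.4, 64.1 and 48.5 CPM in the activated libraries, a log2 change of -6.48 ± 0.47 (adjusted p = 1.74e-06). The quiescent cells averaged 0.0355 CPM. The sources used here do not say which species' IL6 the transgene carries, so this entry gives only what was counted under the gene of the mouse.

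The defining markers of plasma cells were far above the activated level. SDC1, the surface proteoglycan CD138 of plasma cells, had a lowest, median and highest tumor level of 59.8, 115 and 468 CPM. In the activated libraries it was at 1.25, 0.65, 0.941, 1.58 and 1.22 CPM. The log2 change was 7.40 ± 0.70 (adjusted p = 1.06e-05), and the groups did not overlap. JCHAIN, the chain that joins polymeric antibodies, ranged from 376 CPM in the tumor of mouse 1611 to 12900 CPM in that of mouse 1616, with a median of 4560, against 38.8 to 87.6 CPM in activated cells (log2 change 6.41 ± 0.85, adjusted p = 8.79e-05). Of 22 tested plasma cell genes 18 were called higher (81.8%, against 28.5% of all genes) and 1 lower. The median log2 change was 2.89, against 0.02 for all genes tested. Of the 18, 2 were below 1 CPM in every activated library and could pass the filter only through the tumors. The plot of single genes shows how far apart the groups lay.

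**Figure D1:**
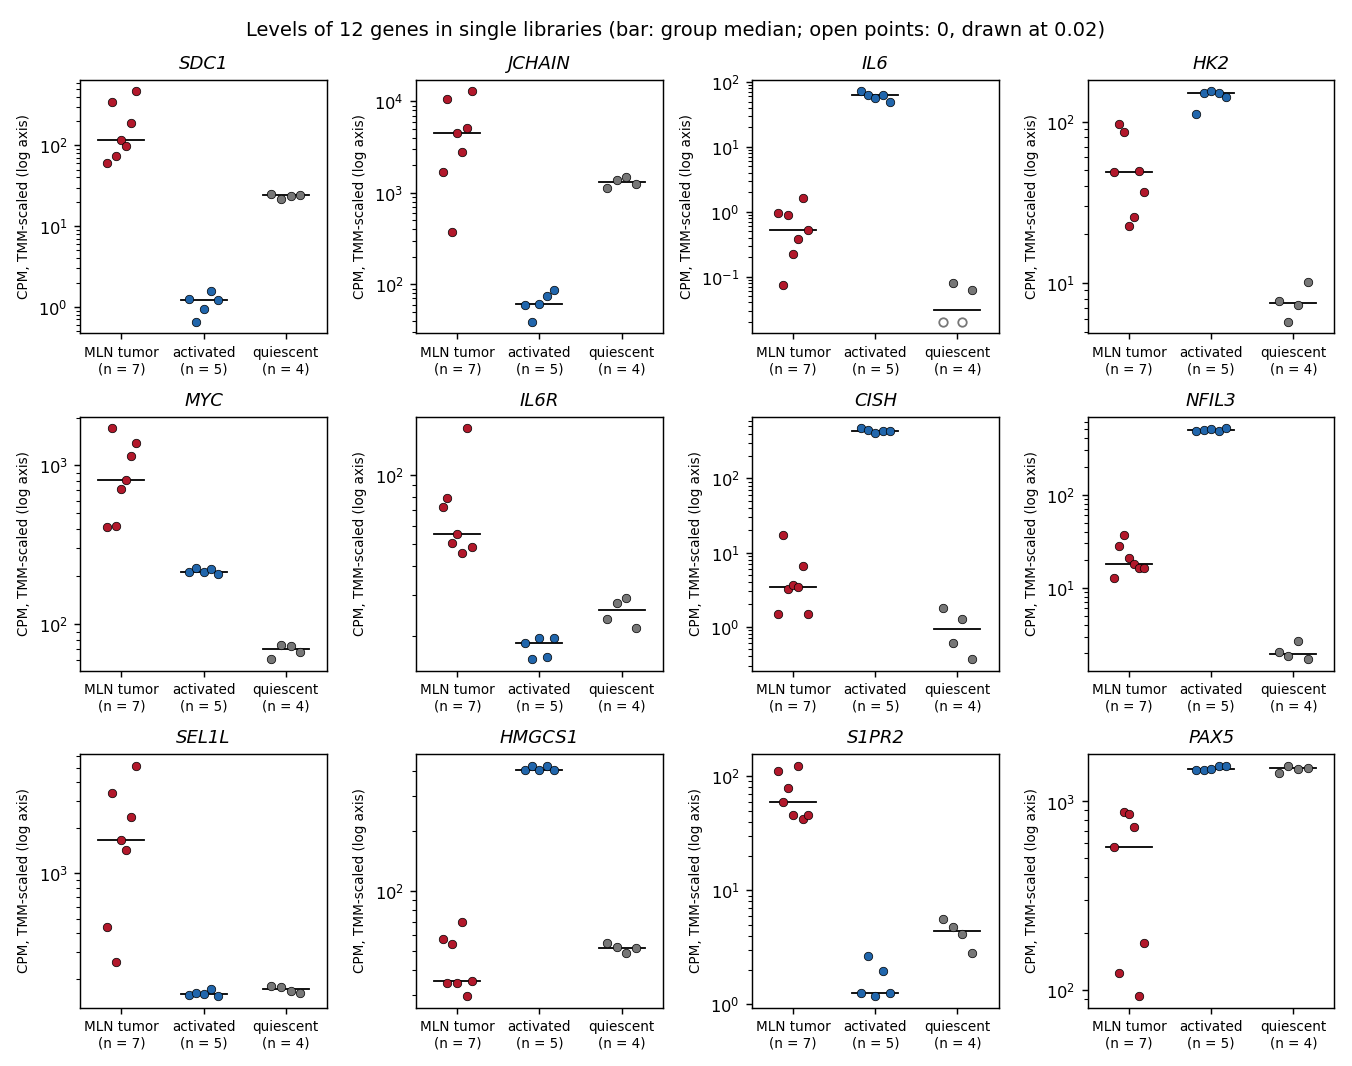
TMM-scaled CPM (log axis) of 12 genes in each MLN tumor (red), activated library (blue) and quiescent library (grey), with the group median as a bar. SDC1, JCHAIN, MYC, IL6R, SEL1L and S1PR2 lie above the activated libraries in every tumor, and IL6, HK2, CISH, NFIL3, HMGCS1 and PAX5 lie below them; open points mark quiescent libraries listed at 0.

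The regulators of the plasma cell program had smaller log2 changes than SDC1 and JCHAIN, and their groups overlapped. PRDM1, the repressor of the B cell program, ran from 12.5 to 114 CPM in the tumors and from 15.9 to 20.7 CPM in activated cells, with overlap (log2 change 1.97 ± 0.47, adjusted p = 0.00383). IRF4 ran from 164 to 850 CPM against 171 to 210 CPM (1.27 ± 0.40, adjusted p = 0.0179). XBP1, the factor of the secretory program, ran from 226 to 3380 CPM against 492 to 511 CPM (1.53 ± 0.53, adjusted p = 0.0287). In each of these the tumor of mouse 1611 lay below the lowest activated library. The call of XBP1 was lost in 10 of 22 alternatives, among them each one without an activated library and the one without the tumor of mouse 1616 (adjusted p up to 0.103). IRF4 was lost in the fit of all 4 groups (adjusted p = 0.0518) and PRDM1 with quantile normalization (adjusted p = 0.0721). The surface proteins CD38 (log2 change 0.08 ± 0.20, adjusted p = 0.76) and SLAMF7 (0.38 ± 0.27, adjusted p = 0.253), both used as drug targets in myeloma, did not pass.

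Receptors for BAFF and APRIL, the survival factors of B and plasma cells, went apart. TNFRSF17, the receptor BCMA of plasma cells, was at 0.762 to 16.2 CPM in the tumors and at 0 to 0.121 CPM in activated cells (log2 change 7.01 ± 1.06, adjusted p = 0.00021). Its call was lost with quantile normalization (adjusted p = 0.097), and without activated library 4 the log2 change was 7.87. TNFRSF13B, the receptor TACI, was the only plasma cell list member called lower, at 89.2 to 262 CPM against 382 to 434 CPM (-1.25 ± 0.21, adjusted p = 0.000407). CD28, a costimulatory receptor known from plasma cells and from T cells, was at 2.12 to 61.1 CPM against 0.0404 to 0.235 CPM (7.35 ± 1.01, adjusted p = 0.000107). Its highest level was in the tumor of mouse 1610, which also had the highest T cell markers. Without that tumor its log2 change was 6.71, and its call was lost with quantile normalization (adjusted p = 0.0575). TNFRSF17 and CD28 were below 1 CPM in every activated library. Both could pass the filter only through the tumors, so the filter set their direction.

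Immunoglobulin genes took 4.03%, 27.1%, 2.05%, 7.59%, 8.88%, 10.6% and 25.5% of the counts in the tumors of mice 1609, 1610, 1611, 1613, 1614, 1615 and 1616. In activated cells they took 0.692% to 0.852%. The means were 12.3% (n = 7) and 0.768% ± 0.0597 (SD, n = 5), a difference of 11.5 percentage points (exact permutation test, 2-sided, p = 0.00253, the smallest p these group sizes can give). IGHA1, the alpha heavy chain, split the tumors: it reached 193000 CPM in mouse 1610 and 256000 CPM in mouse 1616, and lay between 1950 and 10500 CPM in the other 5, against 8.28 to 44.8 CPM in activated cells (log2 change 11.11 ± 1.84, adjusted p = 0.000375, and 10.24 without the tumor of mouse 1616). IGKC, the kappa light chain, was at 5370 to 102000 CPM against 1410 to 1800 CPM (5.02 ± 0.72, adjusted p = 0.00014). IGHM, the heavy chain of naive B cells, did not pass, at 653 to 9010 CPM against 4310 to 5250 CPM (-0.75 ± 0.54, adjusted p = 0.253, and -1.36 with a call without the tumor of mouse 1609). IGHE did not pass either (3.16 ± 1.40, adjusted p = 0.0726), though it did without the tumor of mouse 1609, 1615 or 1616. It stood at 171 CPM in mouse 1614 and 69.1 CPM in mouse 1610, while the other 5 tumors had 0.594 to 6.56 CPM and the activated cells 3.26 to 5.08 CPM.

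Genes of mature B cells were lower in part. Of 26 tested 6 were called lower, 3 higher and 17 did not pass, with a median log2 change of -0.51; 23.1% called lower is near the 25.0% of all genes. PAX5, the factor that holds B cell identity, had a lowest, median and highest tumor level of 92.9, 577 and 877 CPM. It was at 1460, 1460, 1480, 1550 and 1550 CPM in activated cells (log2 change -1.61 ± 0.52, adjusted p = 0.0209). MS4A1, the B cell surface protein CD20, was at 128 to 1380 CPM against 1900 to 1960 CPM (-1.60 ± 0.48, adjusted p = 0.014). Both were below the activated range in every tumor, and both calls were lost when all 4 groups were fitted together (adjusted p = 0.1 and 0.0886). FCER2, the low-affinity IgE receptor CD23, had the largest called fall of this list, from 1290 to 1720 CPM down to 55.9 to 495 CPM (-2.52 ± 0.47, adjusted p = 0.000841).

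Tumor by tumor, the B cell list split the animals. Its mean log2 level minus that of the activated cells was 0.02, 0.53, 0.06 and 0.11 in mice 1609, 1611, 1613 and 1614. In mice 1610, 1615 and 1616 it was -1.54, -1.90 and -1.28. The last 3 tumors also had the highest plasma cell levels, 3.85, 2.98 and 4.03 above the activated cells, where the other 4 lay 1.20 to 2.57 above. The tumor of mouse 1611 had the highest B cell and the lowest plasma cell level. Summed markers of a list drawn up for intestinal epithelium, of which 3 were tested, took the same sides. They gave 604, 385 and 527 CPM in mice 1610, 1615 and 1616, and 41.8, 25.8, 105 and 120 CPM in mice 1609, 1611, 1613 and 1614. Activated cells had 22 to 26.5 CPM. The 3 were EPCAM, KRT18 and CDH1, which are not particular to the intestine. EPCAM alone had 530, 344 and 448 CPM in mice 1610, 1615 and 1616. The spleen tumor of mouse 1616 summed to 1120 CPM. The part of these markers in the split was not tested. In bulk samples, fewer cells of a type and less RNA per cell cannot be told apart.

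**Figure D2:**
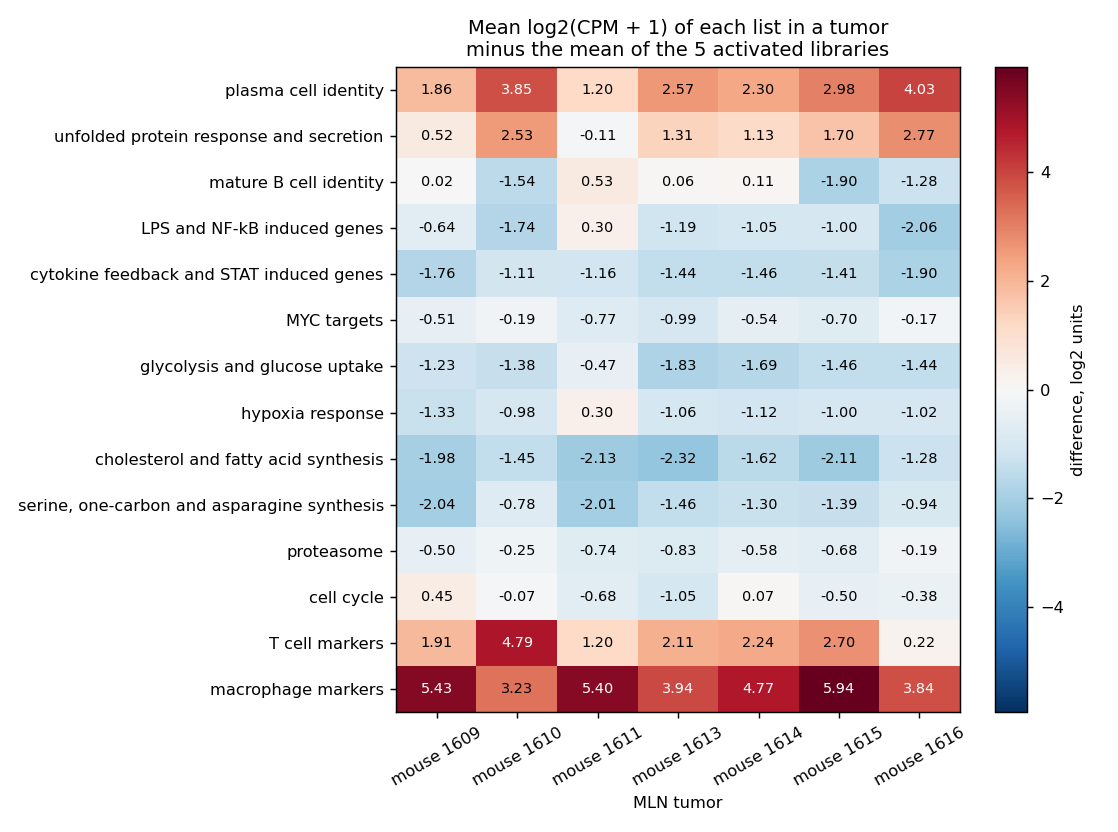
Each cell gives the mean log2(CPM + 1) of the tested genes of a list in 1 MLN tumor minus the mean over the 5 activated libraries (red above, blue below). Plasma cell genes are above in all 7 tumors (1.20 to 4.03), cholesterol genes below in all 7 (-2.32 to -1.28), and B cell genes on both sides.

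Among genes tied to the germinal centre, where B cells refine their antibodies, some were also above the activated level. NUGGC, a GTPase gene found in germinal centre B cells, was at 25.2 to 79.4 CPM against 0 to 0.0809 CPM (log2 change 9.85 ± 0.54, adjusted p = 2.17e-07). Being below 1 CPM in every activated library, NUGGC could pass the filter only through the tumors, so the filter set its direction. S1PR2, a receptor that holds B cells in the germinal centre, was at 42.1 to 124 CPM against 1.18 to 2.64 CPM (5.44 ± 0.41, adjusted p = 2.31e-06). BCL6, the factor that defines germinal centre B cells, did not pass (0.30 ± 0.30, adjusted p = 0.42), and BATF, which acts with IRF4 in class switching, was lower (-2.15 ± 0.41, adjusted p = 0.000977). These genes were not gathered in 1 list, and no statement about such a list is made.

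The unfolded protein response raises chaperones and export genes when protein loads the endoplasmic reticulum. Many of its genes carry the element ERSE near their start, here searched as CCAAT followed after 9 bases by CCACG on both strands of the 250 bases before the RefSeq start site (build GRCm38.p6). Among all 27025 genes with promoter entries 0.13% held it, against 9 of the 34 list genes with an entry (26.5%) and 7 of the 28 called higher (25.0%). A match is a description of the letters and not a measured binding site. A few of these stretches are shown because their genes carry the values that follow. They are written 5′ to 3′ on the strand of the gene, with the element in capitals. They cover HSPA5 at chr2:34771840-34772089 (plus strand), HSP90B1 at chr10:86705445-86705694 (minus strand), CRELD2 at chr15:88819396-88819645 (plus strand) and DERL3 at chr10:75893148-75893397 (plus strand).
HSPA5: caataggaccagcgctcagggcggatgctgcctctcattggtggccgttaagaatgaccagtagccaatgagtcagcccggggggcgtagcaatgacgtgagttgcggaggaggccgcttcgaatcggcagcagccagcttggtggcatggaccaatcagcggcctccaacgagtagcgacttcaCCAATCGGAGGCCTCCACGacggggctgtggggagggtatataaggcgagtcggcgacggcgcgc
HSP90B1: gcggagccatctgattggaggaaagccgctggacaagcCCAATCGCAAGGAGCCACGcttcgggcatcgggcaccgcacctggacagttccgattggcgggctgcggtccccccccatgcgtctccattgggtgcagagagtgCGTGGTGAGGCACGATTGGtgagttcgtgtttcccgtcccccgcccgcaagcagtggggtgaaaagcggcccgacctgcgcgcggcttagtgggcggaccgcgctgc
CRELD2: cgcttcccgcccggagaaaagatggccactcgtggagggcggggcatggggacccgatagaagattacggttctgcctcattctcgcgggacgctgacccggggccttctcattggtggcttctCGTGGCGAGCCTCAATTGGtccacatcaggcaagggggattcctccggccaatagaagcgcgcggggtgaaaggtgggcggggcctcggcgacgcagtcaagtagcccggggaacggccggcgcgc
DERL3: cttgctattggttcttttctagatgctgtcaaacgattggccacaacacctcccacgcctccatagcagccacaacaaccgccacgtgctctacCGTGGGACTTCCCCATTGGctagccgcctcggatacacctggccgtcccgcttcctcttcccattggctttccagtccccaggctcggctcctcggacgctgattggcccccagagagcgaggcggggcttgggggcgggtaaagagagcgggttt

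Of the 42 tested genes of this list 33 were called higher (78.6%) and 0 lower, with a median log2 change of 1.63. SEL1L, the scaffold of a ubiquitin ligase that clears misfolded protein, had a lowest, median and highest tumor level of 257, 1670 and 5170 CPM. In activated cells it was at 156, 160, 158, 172 and 153 CPM, below every tumor (log2 change 3.71 ± 0.67, adjusted p = 0.000658). DERL3, a channel component of the same clearance route, was at 41.6 to 1510 CPM with a median of 331, against 10.6 to 16 CPM (5.35 ± 0.86, adjusted p = 0.000308). CRELD2, a disulfide isomerase-like protein, was at 105 to 2880 CPM against 61.1 to 77.6 CPM (3.87 ± 0.74, adjusted p = 0.000965). HSP90B1, the chaperone GRP94, was at 1040 to 19000 CPM against 1150 to 1260 CPM (2.47 ± 0.64, adjusted p = 0.00603); the tumor of mouse 1611 was the one below the activated range. HSPA5, the chaperone BiP, was at 875 to 9050 CPM against 1150 to 1320 CPM (1.42 ± 0.54, adjusted p = 0.0416). Its call was lost in 12 of 22 alternatives, at adjusted p up to 0.144.

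The size of this difference varied between tumors in the order of the plasma cell list at its ends. Against the activated mean the list was 2.77 higher in mouse 1616 and 2.53 in mouse 1610, which also had the largest immunoglobulin shares. It was -0.11 in mouse 1611, whose immunoglobulin share was the lowest. Without both of the former tumors, an alternative chosen after seeing the data, 25 genes were called higher and 1 lower, and the alternatives ranged from 25 to 36 higher. For PDIA4, another disulfide isomerase, the log2 change was 2.68 ± 0.71 (adjusted p = 0.00688) and 2.08 without mouse 1616. For MZB1, a chaperone of antibody secretion, it was 2.86 ± 0.72 (adjusted p = 0.00532) and 2.19 without mouse 1616.

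**Figure D3:**
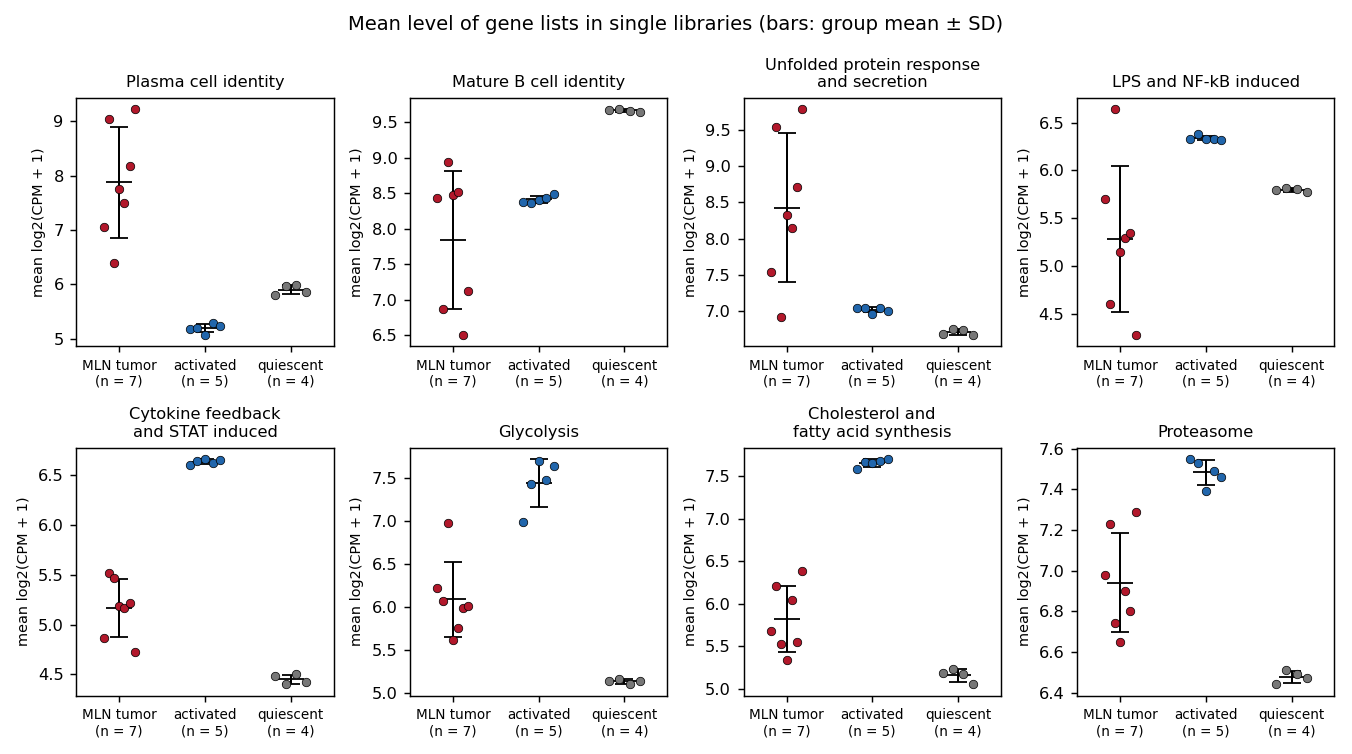
Mean log2(CPM + 1) over the tested genes of 8 lists in each MLN tumor, activated and quiescent library, with the group mean ± SD. Activated libraries lie together, tumors spread; plasma cell scores are 6.39 to 9.22 in tumors against 5.07 to 5.28, and cholesterol scores 5.34 to 6.38 against 7.58 to 7.70.

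Genes that LPS and NF-kB induce were lower in the tumors for part of the list: 14 of 32 tested were called lower (43.8%) and 5 higher, with a median log2 change of -0.69. NFKB1, which encodes a subunit of NF-kB and its own inhibitor, was at 114 to 348 CPM against 684 to 780 CPM (log2 change -1.59 ± 0.25, adjusted p = 0.000273). REL, the subunit most used in activated B cells, was at 44.6 to 257 CPM against 401 to 441 CPM (-1.69 ± 0.37, adjusted p = 0.00236). Their targets BCL2A1, a survival gene (-3.50 ± 0.60, adjusted p = 0.00045), and CD40, the receptor for T cell help (-2.09 ± 0.46, adjusted p = 0.00242), were lower too. TNFRSF8, the activation receptor CD30, was at 0.66 to 9.28 CPM against 84.5 to 122 CPM (-5.07 ± 0.53, adjusted p = 2.03e-05, and -5.66 without mouse 1611), and the activation antigen CD69 at 3.56 to 24.3 CPM against 143 to 159 CPM (-3.56 ± 0.41, adjusted p = 3.51e-05). Called higher were LTB (2.04 ± 0.41, adjusted p = 0.00133), a cytokine of lymphoid tissue, IRF1 (0.86 ± 0.16, adjusted p = 0.000675), JUNB (0.68 ± 0.25, adjusted p = 0.0341), TNFAIP2 and IL10. JUNB was lost in 4 alternatives, 3 of them without the tumor of mouse 1615 or activated library 1 or 4, and IL10 in 4: with quantile normalization (where its log2 change was -0.12), with voom, in the fit of all 4 groups and with only the tumors of mice 1613 and 1614. TNFAIP2 was lost with quantile normalization and with voom (adjusted p up to 0.102), and its log2 change was 8.31, and 7.00 without the tumor of mouse 1611. With mouse 1613 and 1614 alone, 23 of the list were called lower, and without the tumor of mouse 1611 it was 20. In that tumor the list stood 0.30 above the activated mean, in the other 6 between -2.06 and -0.64. TLR4, the LPS receptor, did not pass (0.60 ± 0.40, adjusted p = 0.221).

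Genes of cytokine feedback and STAT induction were lower in the tumors in part. Of 19 tested, 9 were called lower (47.4%), 0 higher at edgeR's threshold and 10 did not pass. The feedback inhibitors SOCS2, SOCS3, SOCS4, SOCS5 and SOCS6 were among those that did not pass. CISH, an inhibitor induced by STAT5, had a lowest, median and highest tumor level of 1.48, 3.45 and 17.3 CPM. It was at 471, 442, 413, 436 and 433 CPM in activated cells (log2 change -6.39 ± 0.59, adjusted p = 9.15e-06, and -7.05 without mouse 1610). NFIL3, a transcription factor induced by cytokines, was at 12.8 to 36.8 CPM against 480 to 513 CPM (-4.53 ± 0.24, adjusted p = 2.06e-07). SOCS1, an inhibitor of JAK kinases, was at 5.71 to 20.2 CPM against 122 to 151 CPM (-3.62 ± 0.27, adjusted p = 1.98e-06). For all 3 the quiescent mean (1.02, 2.08 and 5.55 CPM) lay below the lowest tumor. The kinase gene PIM1 was lower by less (-1.24 ± 0.32, adjusted p = 0.00644), and STAT5A itself was at 28.3 to 48.2 CPM against 164 to 201 CPM (-2.10 ± 0.14, adjusted p = 1.03e-06).

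The 2 receptor chains of IL6 went the other way from the cytokine. IL6R, which binds IL6, was at 45.9 to 159 CPM in the tumors with a median of 55.2, and at 15.8 to 19.6 CPM in activated cells (log2 change 2.03 ± 0.31, adjusted p = 0.000215). IL6ST, the signaling chain gp130, was at 58.5 to 159 CPM against 42.3 to 43.7 CPM (1.13 ± 0.26, adjusted p = 0.00299). Neither overlapped between the groups. Of the 17 tested genes of the IL6 receptor and JAK-STAT list, 3 were called higher (17.6%) and 6 lower (35.3%). The ones called lower were IL6, JAK3, STAT3, STAT4, STAT5A and STAT5B. The tumor of mouse 1615 had the highest IL6R level and also the highest summed macrophage markers, and IL6R is known from macrophages as well; their part in the result was not tested.

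Within the network of MYC partners and antagonists 7 of 11 tested genes were called higher (63.6%, against 28.5% of all genes) and 1 lower (9.09%, against 25.0%). Besides MYC these included its antagonists MXD4, at 197 to 324 CPM against 51.4 to 67.5 CPM (log2 change 2.20 ± 0.15, adjusted p = 1.45e-06), and MXI1 (1.28 ± 0.30, adjusted p = 0.00379). MGA, another repressor of the network, was the one called lower (-0.56 ± 0.14, adjusted p = 0.00565). Genes listed as MYC targets differed in the other direction from MYC: 28 of 46 were called lower (60.9%) and 0 higher, with a median log2 change of -0.49. The ones called lower included the nucleolar genes NCL, NPM1, FBL, NOP56 and NOP58, whose products make ribosomes, and HK2 and LDHA, which the glycolysis list also holds. The list's mean log2 level was 6.78 to 7.60 in the tumors, 7.67 to 7.86 in activated cells. The difference was smallest in mice 1616 and 1610 (-0.17 and -0.19) and largest in mouse 1613 (-0.99). The count called lower ranged from 21 to 41 over the alternatives.

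Glycolysis was among the lists with most calls: 17 of 24 genes were called lower (70.8%) and 3 higher, with a median log2 change of -1.62. Of the 3 higher, 2 were below 1 CPM in every activated library and could pass the filter only through the tumors. HK2, the hexokinase that is induced in growing cells, was at 48.4, 97, 86.4, 22.5, 25.6, 49.1 and 36.5 CPM in the tumors of mice 1609, 1610, 1611, 1613, 1614, 1615 and 1616. In activated cells it was at 111, 150, 154, 151 and 142 CPM. Every tumor lay below every activated library and above the quiescent cells, which had 5.74 to 10.1 CPM (log2 change against activated cells -1.44 ± 0.33, adjusted p = 0.0032). LDHA, which makes lactate, was at 319 to 749 CPM against 1300 to 2250 CPM (-1.86 ± 0.21, adjusted p = 3.72e-05), and TPI1, triosephosphate isomerase, at 108 to 331 CPM against 672 to 1440 CPM (-2.67 ± 0.29, adjusted p = 2.88e-05). GAPDH (-1.59 ± 0.18, adjusted p = 3.56e-05) and the brain aldolase ALDOC (-3.53 ± 0.34, adjusted p = 1.27e-05) were lower as well.

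A few glycolytic genes departed from the list. The glucose transporter SLC2A1 stood at 223 CPM in the tumor of mouse 1611 and at 22.4 to 49.7 CPM in the other 6, against 133 to 217 CPM in activated cells (log2 change -1.53 ± 0.51, adjusted p = 0.0235, and -2.28 without that tumor). Its call was lost in 3 alternatives, including those without activated library 3 or 5. LDHB, the heart form of lactate dehydrogenase, had 1 count in all activated libraries together and a ratio of counts, tumors over activated cells, of 1030 (95% counting interval from 185 to 40700), at only 1.06 to 19.7 CPM. HK3 (8.33 ± 1.21, adjusted p = 0.000161), a hexokinase of myeloid cells, was highest in the same tumor of mouse 1611, which also had the highest neutrophil markers. Its log2 change was 7.57 without that tumor and 9.56 without activated library 1. Of 19 hypoxia genes 8 were lower (42.1%, against 25.0% of all genes) and 3 higher (15.8%, against 28.5%). The hypoxia list was also highest in mouse 1611, at 0.30 above the activated mean against -1.33 to -0.98 in the other 6. VEGFA, the vessel growth factor of that list, did not pass (-0.45 ± 0.37, adjusted p = 0.32).

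**Figure D4:**
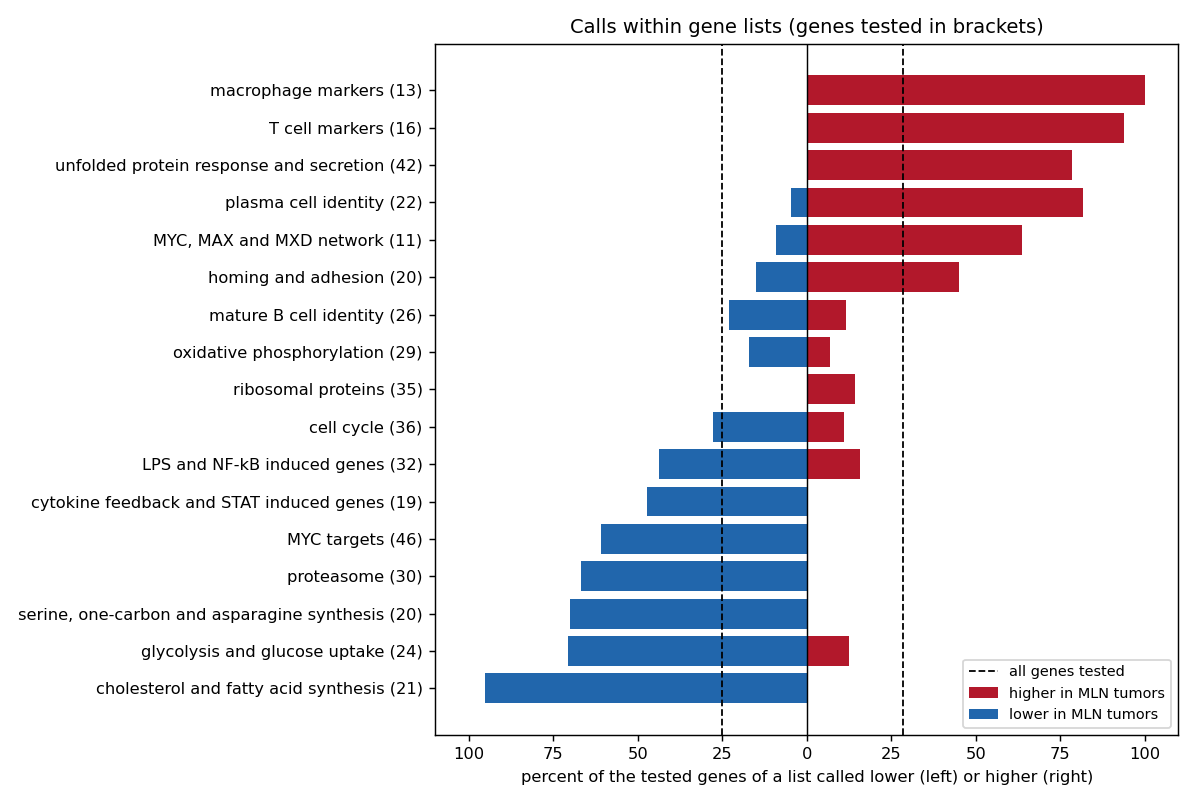
Percent of the tested genes of 17 lists called higher (red, right) or lower (blue, left) in MLN tumors, with the numbers tested in brackets and the shares over all genes, 28.5% higher and 25.0% lower, as dashed lines. Cholesterol genes lie at 95.2% lower and unfolded protein response genes at 78.6% higher. For macrophage and T cell markers a share called higher is no result. Of these, 10 of 13 and 9 of 16 were below 1 CPM in every activated library and could pass the filter only through the tumors.

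Cholesterol and fatty acid synthesis had the largest share of calls among the growth lists: 20 of 21 genes were called lower (95.2%). The median log2 change was -1.87. In 18 of the 21 every tumor lay below every activated library, against 18.8% of all genes. This list is run by the sterol-sensing factors SREBF1 and SREBF2, and its genes rise when a cell builds membrane. HMGCS1, which makes the first dedicated intermediate of the pathway, had a lowest, median and highest tumor level of 29.6, 35.4 and 69.3 CPM. It was at 403, 424, 403, 423 and 405 CPM in activated cells (log2 change -3.19 ± 0.21, adjusted p = 8.71e-07). The quiescent cells lay at 49.0 to 54.6 CPM, within the tumor range. IDI1, an isomerase of the pathway, was at 33.6 to 96.3 CPM against 527 to 580 CPM (-3.07 ± 0.26, adjusted p = 4.61e-06). SREBF2 (-1.41 ± 0.15, adjusted p = 2.32e-05) and the desaturase SCD (-1.90 ± 0.22, adjusted p = 4.23e-05) were lower too. ELOVL6 alone of the list did not pass.

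A sterol response element, searched as TCACNCCAC on both strands, was found in the 250 bases before the start of HMGCS1, at chr13:119690101-119690350 (plus strand, GRCm38.p6). It is the one gene of the 12 called lower with a promoter entry that held these letters (8.33%), where 1.22% of all genes held them. Other lists held them too: 2 of 16 glycolysis genes called lower (12.5%) and 2 of 28 unfolded protein response genes called higher (7.14%). A STAT palindrome, TTCNNNGAA, searched the same way, was in 2 of the 13 cytokine feedback genes with an entry (15.4%). It was in 0 of the 8 called lower and in 8.13% of all genes. With 8 genes, 0 cannot be told apart from that share. The stretch of HMGCS1 is shown, with the sterol element in capitals, for the member with the largest called fall among those named here.
HMGCS1: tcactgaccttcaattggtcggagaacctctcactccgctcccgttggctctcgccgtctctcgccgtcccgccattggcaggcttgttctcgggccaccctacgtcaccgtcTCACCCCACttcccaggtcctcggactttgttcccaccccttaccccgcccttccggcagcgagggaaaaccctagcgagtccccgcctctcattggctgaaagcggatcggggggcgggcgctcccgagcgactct

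Serine, one-carbon and asparagine synthesis is a set run in part by the stress factor ATF4. Of its 20 tested genes 14 were called lower (70.0%) and 0 higher, with a median log2 change of -1.14. In 14 of the 20 every tumor lay below every activated library, against 18.8% of all genes. TRIB3, a pseudokinase induced by ATF4, was at 0.566 to 4.89 CPM against 149 to 176 CPM (log2 change -5.98 ± 0.40, adjusted p = 1.03e-06). PSAT1, a serine synthesis enzyme, was at 77.5 to 275 CPM with a median of 155, against 417 to 454 CPM (-1.38 ± 0.28, adjusted p = 0.00134). ASNS, asparagine synthetase, was at 20.2 to 193 CPM against 233 to 252 CPM (-1.20 ± 0.44, adjusted p = 0.0353). The call of ASNS was lost in 11 alternatives (adjusted p up to 0.145), among them the ones without any one of the activated libraries or without the tumor of mouse 1609, 1613 or 1614. ATF4 itself and its stress targets DDIT3 and CHAC1 were called lower too.

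Other machinery of growth had smaller median changes. Of 30 proteasome genes 20 were called lower (66.7%) and 0 higher, at a median log2 change of -0.52, and their number ranged from 15 to 29 over the alternatives. Oxidative phosphorylation had 5 of 29 lower and 2 higher, with a median of -0.01; without single libraries these counts were 2 to 9 lower (2 without activated library 1, 9 without the tumor of mouse 1610) and 1 to 4 higher. Ribosomal proteins had 5 of 35 higher and 0 lower, with a median of 0.24; from 2 to 17 were called higher over the alternatives, 2 without the tumor of mouse 1610 and 14 without that of mouse 1609. The shares of both lists lay below those of all genes. Of the lists with 0 calls in a direction by edgeR, those of MYC targets, cholesterol, proteasome and ribosomal genes and the unfolded protein response also had 0 at an unadjusted p of 0.05, with DESeq2 and with limma's voom. DESeq2 called 1 cytokine feedback gene and 1 gene of the serine list higher, and in the serine list 1 was higher at an unadjusted p of 0.05.

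Several signaling lists had shares of calls about those of all genes or below. Antigen presentation by MHC class II had 1 of 11 genes higher and 2 lower, B cell receptor signaling 4 of 18 higher and 3 lower, and LPS sensing 4 of 19 higher and 2 lower. Without the tumor of mouse 1615, 2 MHC class II genes were higher. The LPS sensing genes called lower were 4 without the tumor of mouse 1611 and 1 without activated library 1, 2, 4 or 5. Interferon-stimulated genes had 4 of 19 higher and 5 lower, and the lower ones were 3 without the tumor of mouse 1609 or any one activated library and 7 without that of mouse 1611. With only the tumors of mice 1613 and 1614, 6 LPS sensing and 11 interferon-stimulated genes were called lower. The BAFF and APRIL system had 6 of 10 higher and 3 lower, and 1 higher with quantile normalization. Of those 6 genes 5 were below 1 CPM in every activated library and could pass the filter of 1 CPM in 4 libraries only through the tumors, so their count is no result. The same held for 1 gene called higher in each of 4 lists: unfolded protein response, MYC network, LPS and NF-kB, and LPS sensing.

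Cell cycle genes did not stand apart from all genes as a list: 10 of 36 tested were called lower (27.8%) and 4 higher (11.1%). Called lower were MCM2 to MCM7, the helicase that opens DNA for replication, the replication clamp PCNA, the nucleotide synthesis genes TYMS and RRM1, and E2F1. TYMS, thymidylate synthase, was at 16.4 to 51.7 CPM with a median of 31.9, against 84.5 to 127 CPM (log2 change -1.81 ± 0.26, adjusted p = 0.000155). The 4 called higher were the mitotic genes CCNB2 (0.98 ± 0.25, adjusted p = 0.00568), CDC20 (0.72 ± 0.24, adjusted p = 0.0218) and CENPA, and the transcription factor E2F2 (1.12 ± 0.20, adjusted p = 0.000658). The call of CDC20 was lost with only the tumors of mice 1613 and 1614 (adjusted p = 0.0964). MKI67, a marker of dividing cells, did not pass, at 227 to 729 CPM against 263 to 372 CPM (0.62 ± 0.26, adjusted p = 0.0581), though it did in 6 alternatives, 2 of them without the tumor of mouse 1611 or that of mouse 1613. Both groups lay above the quiescent mean of 24.4 CPM for this gene.

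Among the D cyclins, which myelomas often raise, CCND1 was at 2.59 to 16.2 CPM against 0 to 0.564 CPM (log2 change 5.65 ± 0.84, adjusted p = 0.000183, and 6.84 without activated library 5). Being below 1 CPM in every activated library, CCND1 could pass the filter only through the tumors, so the filter set its direction. The quiescent cells lay at 1.98 to 5.95 CPM, which overlaps the tumor range. CCND2 did not pass (-0.01 ± 0.40, adjusted p = 0.99), nor did CCND3 (-0.32 ± 0.22, adjusted p = 0.249). The inhibitor CDKN1A was higher (1.94 ± 0.39, adjusted p = 0.0013), at 21.4 to 136 CPM against 18 to 20.1 CPM. EZH2, the methyltransferase of H3K27, was lower (-1.71 ± 0.27, adjusted p = 0.00024). In the BCL2 family 5 of 13 were lower (38.5%, against 25.0% of all genes) and 3 higher (23.1%, against 28.5%). The survival gene BCL2 was lower (-1.40 ± 0.33, adjusted p = 0.00382). MCL1, on which myeloma cells often depend, was higher by little (0.45 ± 0.16, adjusted p = 0.0262) and BCL2L1 did not pass (0.72 ± 0.40, adjusted p = 0.15). The MCL1 call was lost without a filter on low counts (adjusted p = 0.0505), and BCL2L1 passed without the tumor of mouse 1609. Without the tumor of mouse 1611 or 1613, 5 of the family were called higher.

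Homing and adhesion genes had 9 of 20 called higher (45.0%, against 28.5% of all genes) and 3 lower (15.0%). Of the 9, 2 were below 1 CPM in every activated library and could pass the filter only through the tumors. CXCR4, the receptor that brings plasma cells to bone marrow, was at 80.1 to 415 CPM with a median of 195, against 37.7 to 47.3 CPM (log2 change 2.35 ± 0.39, adjusted p = 0.000354). ITGB7, a chain of the integrin that directs lymphocytes to the gut, was at 46.1 to 203 CPM against 15.8 to 28.1 CPM (2.58 ± 0.34, adjusted p = 8.48e-05). The quiescent means were 236 CPM for CXCR4, within the tumor range, and 326 CPM for ITGB7, above it. CCR9, another gut homing receptor, did not pass (0.33 ± 0.42, adjusted p = 0.533). Of the immediate early genes 9 of 19 were higher (47.4%, against 28.5% of all genes), 3 of them below 1 CPM in every activated library. FOS, a transcription factor that responds fast to stimuli, was at 67.3 to 718 CPM against 0.423 to 1.56 CPM (7.97 ± 0.83, adjusted p = 2.08e-05).

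Summed markers of several other cell types were higher in the tumors, although all samples had been through the same kind of selection. Many of these markers were below 1 CPM in every activated library (10 of 13 tested macrophage, 9 of 16 T cell, 6 of 9 neutrophil, 6 of 8 erythroid and 7 of 11 stromal markers) and could pass the filter only through the tumors, so sums are given and no counts of calls. Macrophage markers summed to 935 to 5440 CPM in the tumors against 70.6 to 87.6 CPM in activated cells, and stromal markers to 137 to 593 CPM against 18.2 to 23.3 CPM. T cell markers summed to 46.3 to 1030 CPM against 77.1 to 94.7 CPM, highest in mouse 1610 and below the activated cells in mouse 1616. By mean log2 level, where each marker weighs the same, the tumor of mouse 1616 was 0.22 above the activated mean. Neutrophil markers were highest in mouse 1611, at 1480 CPM against 8.66 to 12.1 CPM. Erythroid markers were highest in mouse 1609, at 1630 CPM, while the other 6 tumors had 104 to 302 CPM and the activated cells 277 to 305 CPM. That sum also holds TFRC, which was lower in the tumors and which the MYC target list shares. HBA1, a globin gene, was at 7.9 to 837 CPM in the tumors against 0 to 1.75 CPM. By mean log2 level the erythroid list was at 1.81 to 6.57 in the tumors against 1.07 to 1.30 in activated cells. In the activated cells 1 listed neutrophil, 1 dendritic cell, 4 stromal, 4 endothelial and 4 intestinal epithelium markers were at 0. The part of such cells in the lists above was not tested.

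The largest rises overall held genes that are not B lineage markers. EPHA8, a receptor tyrosine kinase of the nervous system, had 2 counts over the activated libraries and a ratio of counts of 5450 (95% counting interval from 1510 to 45000), at 8.76 to 175 CPM in the tumors. Its call was lost with quantile normalization (adjusted p = 0.125). RELN, an extracellular guidance protein, was at 20.8 to 784 CPM against 0 to 0.188 CPM (log2 change 11.79 ± 1.33, adjusted p = 3.23e-05, and 12.50 without activated library 5). The myeloid receptor gene CD300C was at 0 in all activated libraries and at least 1010-fold higher (floor of 3 counts over the group), and the collagen gene COL1A2 at least 808-fold. The fitted log2 change of CD300C, which depends on the prior count, was 12, and 11.05 without the tumor of mouse 1615. The call of COL1A2 was lost with quantile normalization and with voom (adjusted p up to 0.146). EPHA8, RELN, CD300C and COL1A2 were below 1 CPM in every activated library. They could pass the filter only through the tumors, so the filter set their direction.

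MID1, TF and SELENOP were among the rises with the lowest p-values. MID1, a microtubule-bound ubiquitin ligase, was at 497 to 1140 CPM in the tumors and 12.9 to 16.5 CPM in the activated cells (log2 change 5.46 ± 0.26, adjusted p = 1.16e-07). TF, transferrin, was at 52.6 to 168 CPM against 0.141 to 0.485 CPM (8.75 ± 0.43, adjusted p = 1.16e-07). Being below 1 CPM in every activated library, TF could pass the filter only through the tumors, so the filter set its direction. SELENOP, the selenium carrier, was at 137 to 460 CPM against 2.76 to 3.76 CPM (6.28 ± 0.33, adjusted p = 2.06e-07). Among the falls, SERTAD4 had the largest among genes at 20 CPM or more in the activated cells, from 24.3 to 29.0 CPM down to 0 to 0.519 CPM (-7.29 ± 0.55, adjusted p = 2.15e-06), ahead of IL6, CISH, TRIB3 and TNFRSF8. The clathrin heavy chain CLTC, of vesicle traffic, fell from 1680 to 1770 CPM to 364 to 488 CPM (-2.07, adjusted p = 1.16e-07), and RAB35, of recycling endosomes, from 698 to 748 CPM to 78.4 to 140 CPM (-2.71, adjusted p = 1.16e-07).

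**Figure D5:**
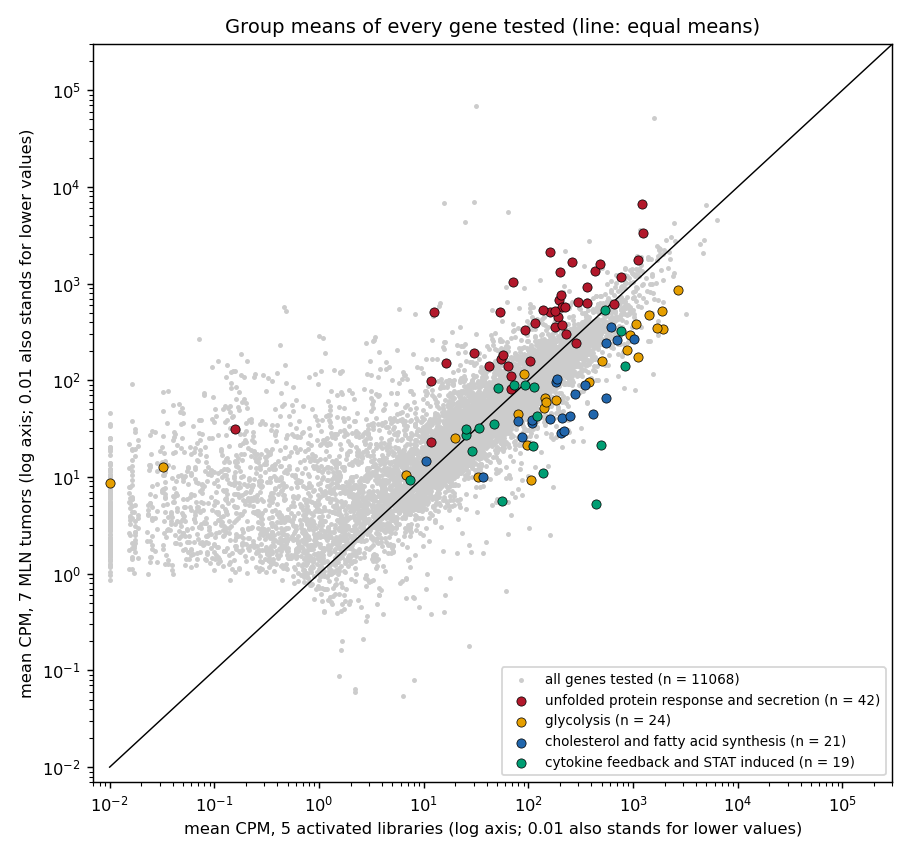
Mean CPM of each of the 11068 genes tested in 7 MLN tumors (vertical, log axis) and 5 activated libraries (horizontal, log axis), with 4 lists in colour and equal means as a line. Unfolded protein response genes lie mostly above the line and cholesterol, glycolysis and cytokine feedback genes mostly below it.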

How the data were processed

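Total RNA sequencing of 7 MLN tumors and 5 activated libraries was used. The deposited table holds estimated counts per gene, although its name speaks of TPM. The submitters' processing notes name Trim Galore 0.4.0, DESeq2 and the build GRCm39; no source used here names the quantifier or the step that gave human names. Of 61651 entries 17047 were above 0, and identical ones were merged into 15881 profiles; 532 human names had several profiles, of which the one with the highest mean was used. Counts were rounded and tested with edgeR 4.0.16 (TMM factors, quasi-likelihood test, 2-sided) in R 4.3.3, for genes at 1 CPM or more in at least 4 of the 12 libraries, without 6 Y-linked profiles. SE is the absolute log2 change over the square root of F. The fit was tested on simulated counts. Genes, alternatives and 38 lists were chosen with earlier results of these data known: 30 genes always, the 4 largest called changes per list, and the largest changes and lowest p overall (higher group at 20 CPM or more, no overlap). Others, such as TNFRSF13B, CD40, ASNS, IL6ST and CCNB2, were named after their values were seen. Alternatives used limma 3.58.1 and DESeq2 1.42.0, other filters and left-out libraries. Intervals cover counting error only. A few members of the fit are not reported here.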

Additional observations from a re-analysis of the deposited data

Results flagged for a closer look

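Of 198 groups of values tested, 22 held 1 library far from the rest of its group, 14 of them among tumors, where chance flags about 1 in 20. Among the tumors, the one of mouse 1611 was highest for SLC2A1 (223 CPM, others 22.4 to 49.7), HK3 (45.5 CPM, others 1.85 to 14.7), TNFAIP2 (220 CPM, others 3.19 to 58.9), IL10 (15.7 CPM, others 2.38 to 7.92), TNFRSF8 (9.28 CPM, others 0.66 to 3.95) and CD38 (231 CPM, others 91.2 to 140). The tumor of mouse 1610 was highest for CISH (17.3 CPM, others 1.48 to 6.54) and CCR9 (8.67 CPM, others 1.74 to 3.75). The tumor of mouse 1615 was highest for IL6R (159 CPM, others 45.9 to 79.5) and CD300C (101 CPM, others 3.04 to 40.4) and lowest for SREBF2 (153 CPM, others 253 to 313). Mouse 1609 was highest for IGHM (9010 CPM, others 653 to 3400), mouse 1613 for MID1 (1140 CPM, others 497 to 617) and mouse 1614 for IGHE (171 CPM, others 0.594 to 69.1).

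Among the activated libraries, library 1 was lowest for HK2 (111 CPM, others 142 to 154) and MZB1 (364 CPM, others 381 to 385) and the one with any count for LDHB (0.038 CPM). Library 2 was highest for STAT5A (201 CPM, others 164 to 171). Library 4 was lowest for CDKN1A (18 CPM, others 19.6 to 20.1) and highest for TF (0.485 CPM, others 0.141 to 0.228). Library 5 was highest for RAB35 (748 CPM, others 698 to 711) and lowest for CD69 (143 CPM, others 156 to 159).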

How the results depend on the processing

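Over 22 alternatives, 98 of the genes named were followed. Of these, 71 kept their side of the threshold without a called value changing sign, and 27 did not in 1 or more. CCND2, CD38, CCR9 and IGHE, not called in the comparison itself, crossed 0 in some (log2 change up to 0.22 for CCND2, down to -0.06 for CD38 and -1.2 for IGHE). Leaving out 1 library gave 5096 to 6179 genes called. With quantile normalization 1627 genes were called higher against 3159. The macrophage markers called higher fell from 13 to 8. Neither of these marker counts is a result, because 10 of the 13 could pass the filter only through the tumors. Of the genes called with quantile normalization or in the comparison itself, CCR9 (log2 change -1.52), IL10 (-0.12) and EGFL7 (-0.82) changed sign. With the tumors of mice 1613 and 1614 alone, split by Y-linked genes at 20 CPM after their values were seen, 23 LPS and NF-kB genes were called lower against 14. The cause of these shifts was not tested. The difference in immunoglobulin share was 9.02 to 13.2 percentage points without single libraries and 10.2 with constant region genes and JCHAIN only. No paired analysis was possible because tumors and activated libraries share no replicate number. At these depths levels of genes near 0 in activated cells rest on few counts, and their fitted changes on the prior count.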
